A study of Homo sapiens with 6 samples.

Results

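The genes described here are the centromere and kinetochore genes of HCCC9810 cells, a human intrahepatic cholangiocarcinoma line. They were chosen by symbol alone, as every gene named CENP plus a single letter together with the named subunits of the outer kinetochore, of the SKA and RZZ complexes and of the machinery that loads CENP-A. The rule found 41 genes among the 19470 of the count table, spread over 19 chromosomes. The wild-type cells received either 20 μM isolinderalactone (ILL), a plant sesquiterpene lactone, or the vehicle DMSO for 24 h, with 3 RNA-seq libraries in each group. The cultures behind the libraries are not described, so the p-values below measure only the spread between these libraries, which may be technical. Each library held between 34282764 and 37758569 counts.

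The centromere is the chromosomal site marked by nucleosomes that carry the histone H3 variant CENP-A. On it sits the constitutive centromere-associated network (CCAN), a set of proteins present through the cell cycle, and on the CCAN the outer kinetochore assembles at mitosis, where the KNL1, MIS12 and NDC80 complexes (the KMN network) capture spindle microtubules. The RNAs of many of these proteins are cell-cycle regulated and peak in G2 and M phase.

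ILL lowered the RNA of nearly the whole assembly. Of the 41 genes, 40 had enough counts to be tested, and 34 of these fell, that is, had an adjusted p under 0.05 and a fold change under 0.5 (85% of the tested members, against 11.4% of all 13066 tested genes). No member rose past the matching cutoff of a 2-fold increase, which 12.5% of tested genes passed, and 0 members were higher at an unadjusted p under 0.05 in edgeR or in DESeq2. With the adjusted p alone, 40 of 40 members were lower, where 36.9% of tested genes were. The 3 ILL libraries lay below the 3 control libraries in 40 of 40 tested members, as they did in 38% of tested genes. The median log2 fold change of the tested members was −2.54, a 5.80-fold lower level, and that of all tested genes was −0.0012.

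The size of the fall differed among the members. The log2 fold change was under −3 in 12 members, between −3 and −2 in 13, between −2 and −1 in 9, and −1 or above in 6. The steepest fall was that of OIP5 (−3.69) and the shallowest difference that of CENPT (−0.25). Of the 500 tested genes with the lowest log2 fold changes, 26 were members. Summed over the 41 genes, the members took 0.228%, 0.223% and 0.216% of the counts in the control libraries and 0.0600%, 0.0605% and 0.0611% in the ILL libraries. The summed level was 2173 ± 49.5 CPM (counts scaled to library size by TMM; SD, n = 3) in control and 620 ± 8.16 with ILL, which is 3.50-fold lower. CENPB alone took 281 CPM of the sum in control and 193 CPM with ILL. In bulk RNA, fewer cells in the stages that express these genes and less RNA per cell cannot be told apart.

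**Figure D1:**
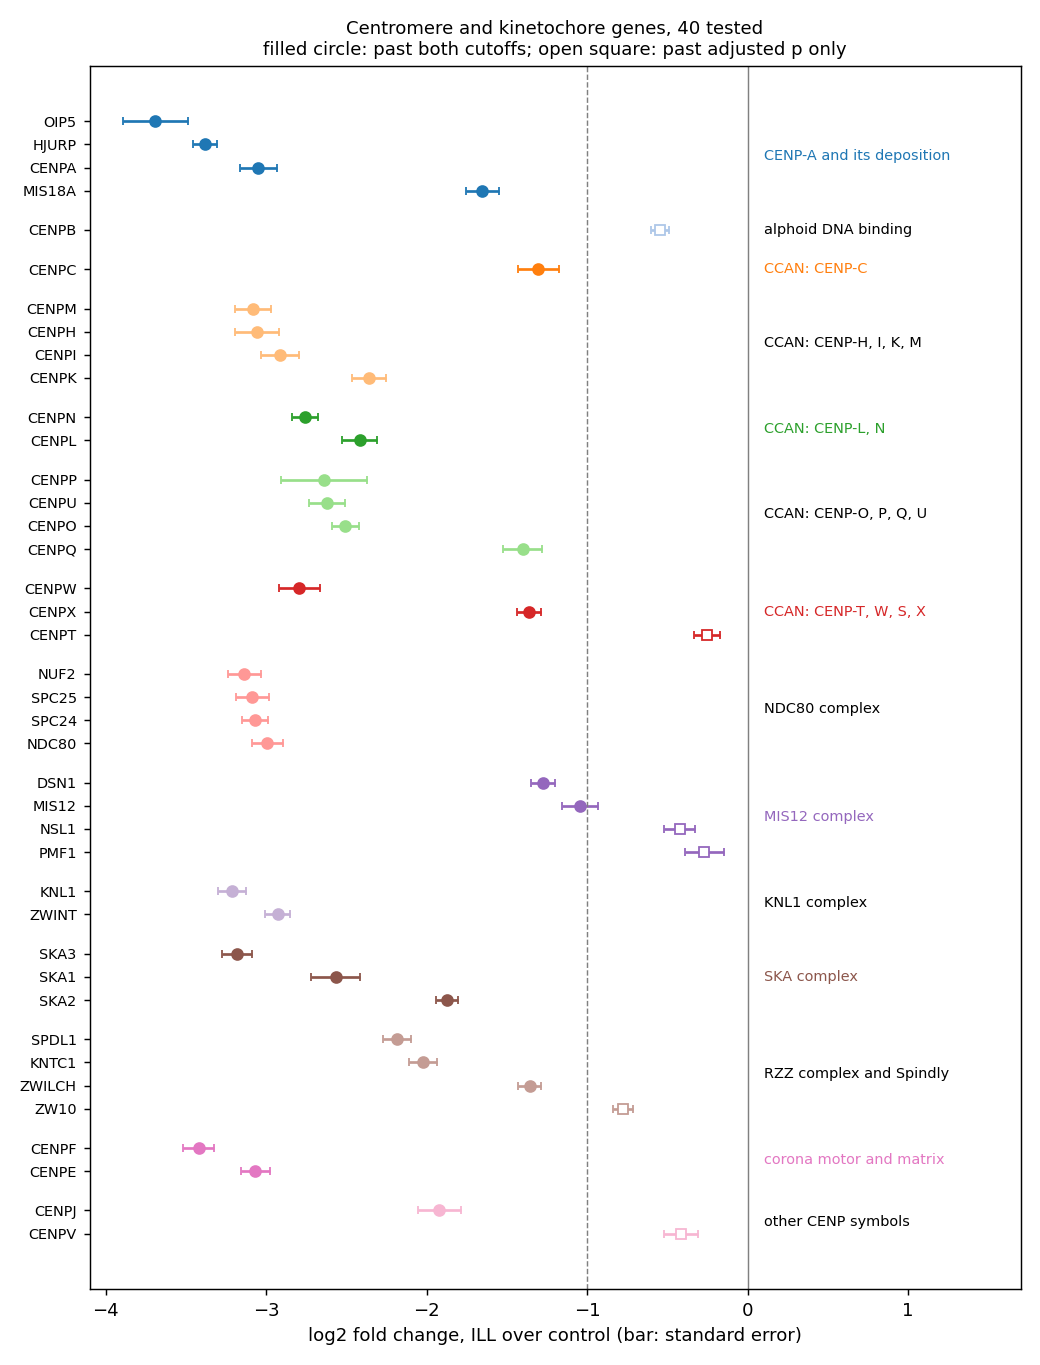
Log2 fold change, ILL over control, of the 40 tested centromere and kinetochore genes (points; bars are standard errors), grouped by complex; the dashed line marks a fold of 0.5, filled circles are genes past both cutoffs and open squares genes past the adjusted p only. All points lie left of 0, from −3.69 (OIP5) to −0.25 (CENPT), and 6 of them lie right of the dashed line.

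Promoters are shown here because genes of this assembly share known cell-cycle elements. Late cell-cycle genes are repressed outside G2 and M phase through the cell cycle genes homology region (CHR), a short element near the start of transcription that is bound by the DREAM complex and often accompanied by CCAAT boxes, and genes of the G1/S boundary through E2F sites. RefSeq promoter windows (build GRCh38.p14, 250 bases before to 50 bases after the start) were found for 34 of the 41 members. CENPH, CENPJ, CENPL, CENPM, KNL1, KNTC1 and MIS18A had no entry. In 31 of the 34 the bases after the start were found in a GENCODE transcript of the gene. They were not for CENPB, CENPP and CENPW, which are counted below as holding no CHR and whose starts are less certain. The windows were searched on both strands for the CHR (TTTGAA), for the box CCAAT and for an E2F core. No other spelling of the CHR was searched, so a promoter said to hold no CHR is one without TTTGAA. The core was taken as TTCCCGC, with the spellings TTGGCGC and also TTCGCGC and further TTGCCGC counted as the same element. CCAAT on the other strand shares letters with the second spelling of the core, so that a single stretch can count for both. The 4 promoters of the NDC80 complex are printed with those of CENPA, SKA3 and ZWINT, which fell by similar amounts, and with those of CENPT and NSL1, which did not pass the fold cutoff. Each line gives 100 bases before the start and the first 25 transcribed bases, 5′ to 3′, and capitals mark the matches. They lie at chr18:2571457-2571581 (plus strand) for NDC80, chr1:163321854-163321978 (plus strand) for NUF2, chr2:168890406-168890530 (minus strand) for SPC25, chr19:11155758-11155882 (minus strand) for SPC24, chr2:26785956-26786080 (plus strand) for CENPA, chr13:21176528-21176652 (minus strand) for SKA3, chr10:56361235-56361359 (minus strand) for ZWINT, chr16:67847669-67847793 (minus strand) for CENPT and chr1:212791753-212791877 (minus strand) for NSL1.
NDC80: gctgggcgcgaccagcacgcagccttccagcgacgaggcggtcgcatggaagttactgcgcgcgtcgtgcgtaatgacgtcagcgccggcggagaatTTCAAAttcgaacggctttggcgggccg
NUF2: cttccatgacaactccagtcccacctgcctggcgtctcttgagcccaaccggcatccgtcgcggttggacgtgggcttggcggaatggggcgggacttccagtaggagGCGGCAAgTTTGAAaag
SPC25: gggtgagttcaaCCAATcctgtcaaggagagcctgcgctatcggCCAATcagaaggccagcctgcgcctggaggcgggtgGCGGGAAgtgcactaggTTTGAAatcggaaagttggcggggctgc
SPC24: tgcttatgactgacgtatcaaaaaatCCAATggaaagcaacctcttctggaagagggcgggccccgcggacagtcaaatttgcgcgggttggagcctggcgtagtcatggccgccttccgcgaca
CENPA: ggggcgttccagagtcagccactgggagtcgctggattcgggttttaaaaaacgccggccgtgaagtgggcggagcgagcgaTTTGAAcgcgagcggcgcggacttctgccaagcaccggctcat
SKA3: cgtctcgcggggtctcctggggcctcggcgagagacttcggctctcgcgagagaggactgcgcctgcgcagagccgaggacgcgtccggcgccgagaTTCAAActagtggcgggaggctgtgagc
ZWINT: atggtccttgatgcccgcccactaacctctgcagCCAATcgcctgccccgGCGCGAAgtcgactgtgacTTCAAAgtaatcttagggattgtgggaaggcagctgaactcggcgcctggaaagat
CENPT: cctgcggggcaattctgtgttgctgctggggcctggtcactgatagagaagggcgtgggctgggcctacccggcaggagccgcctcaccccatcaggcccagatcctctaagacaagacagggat
NSL1: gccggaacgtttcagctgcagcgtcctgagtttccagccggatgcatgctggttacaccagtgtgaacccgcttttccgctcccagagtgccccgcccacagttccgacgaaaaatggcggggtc

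In NDC80, SPC25 and SKA3 a CHR began at the same place, 3 bases before the first transcribed base. It began 18 bases before it in CENPA, 31 bases before it in ZWINT and 16 bases after it in NUF2. Some matches lay outside the printed bases, among them a second CHR of SPC25, 247 bases before the start. In the full windows, SPC24 held 3 CCAAT boxes and no CHR, and CENPT and NSL1 held none of the 3 elements. The printed promoters do not stand for all members. CENPE (−3.07) and CENPI (−2.91) also held none, while ZW10, PMF1 and CENPB, all short of the fold cutoff, held at least 1. Any of the 3 elements stood in 23 of the 27 members that fell and in 3 of the 6 others. It did so in 52.7% of all promoters and in 53.5% of those of tested genes. A CHR stood in 14 of the 34 member promoters (41.2%), in 15.4% of all 27305 promoters and in 9.66% of the 10482 promoters of tested genes. Among members with a promoter entry it stood in 13 of the 27 that fell and in 1 of the 6 that were tested and did not pass the fold cutoff, ZW10, 224 bases before the start. The median log2 fold change was −2.96 with a CHR and −1.40 without, −2.49 with CCAAT and −2.57 without, and −2.62 with the E2F core and −2.43 without. CCAAT was found in 20 member promoters (58.8%, against 35.7% of all promoters and 36.2% of those of tested genes) and the E2F core in 16 (47.1%, against 13.1% and 20.5%). The E2F core stood in 12 of the 27 that fell and in 3 of the 6 others. These are counts of letters and not of bound sites.

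A closer window of 50 bases on either side of the start was chosen after the values had been seen. It held a CHR in 11 of the 34 members (32.4%), in 4.67% of all promoters and in 2.68% of those of tested genes. All 11 fell, with log2 fold changes from −3.42 (CENPF) to −2.18 (SPDL1). The 19 tested members with no TTTGAA in the full window ran from −3.69 (OIP5) to −0.25 (CENPT). Steep falls were thus found both with and without this spelling. The OIP5 window holds TTCGAA, a near spelling that was not counted, so OIP5 may not lack the element.

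**Figure D2:**
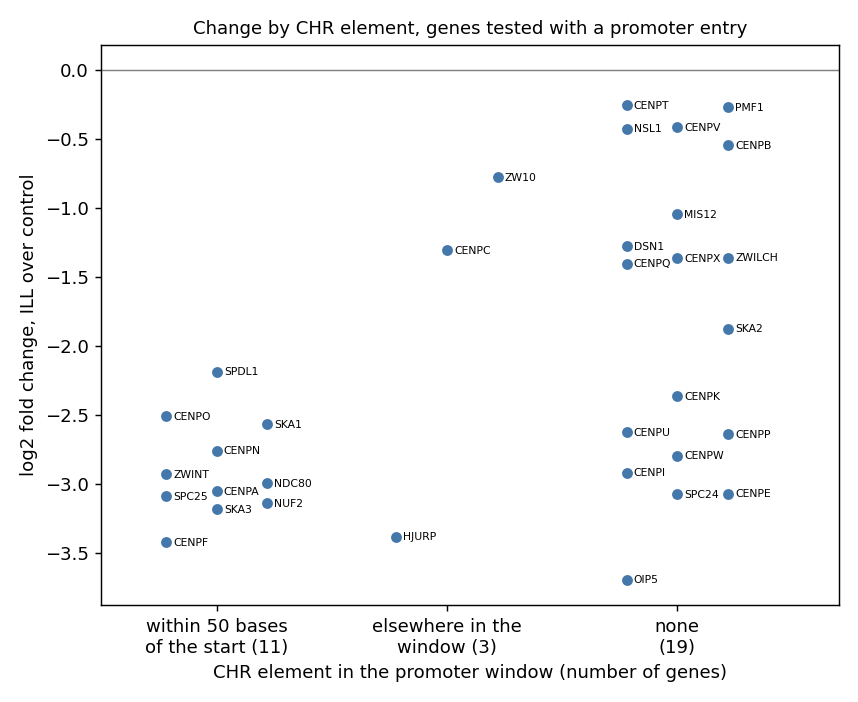
Log2 fold change, ILL over control (vertical axis), of the tested members with a promoter entry, by where the CHR letters stand in the promoter window (horizontal axis; each point is a gene). The 11 genes with a CHR within 50 bases of the start lie between −3.42 and −2.18, and the 19 with no TTTGAA in the window spread from −3.69 to −0.25.

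At the base of the assembly, the 4 genes of the CENP-A nucleosome and its loading all fell, with a median log2 fold change of −3.21. OIP5, which with MIS18A forms the Mis18 complex that licenses centromeres for new CENP-A, had 376, 376 and 347 counts in the control libraries and 23, 29 and 29 in the ILL libraries. This was the steepest fall of any member, 12.9-fold (log2 fold change −3.69 ± 0.20, SE; adjusted p = 2.70e-14, edgeR's quasi-likelihood test with Benjamini-Hochberg adjustment, as for every adjusted p below). Of the exon bases of OIP5, 38% are shared with the antisense gene OIP5-AS1, and the strand of counting is not given in the sources used here. HJURP, the chaperone that deposits CENP-A, fell from 4142, 3819 and 3865 counts to 350, 341 and 394 (log2 fold change −3.38). CENPA itself fell 8.27-fold, from 1279, 1139 and 985 counts to 137, 114 and 141. Of the exon bases of CENPA, 6.96% are shared with SLC35F6 on the same strand. MIS18A, the partner of OIP5, fell least in the group, with 1367, 1247 and 1147 counts in control and 453, 325 and 364 with ILL (log2 fold change −1.65 ± 0.10, SE; adjusted p = 2.81e-13). These 2 subunits of one complex fell by different amounts. The log2 ratio of MIS18A to OIP5 within a library was 0.91 ± 0.078 in control and 2.95 ± 0.43 with ILL (SD, n = 3), with no overlap between the groups. The pair was picked by its fold changes, so the ratio is a description.

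CENPB, which binds the CENP-B box of alphoid satellite DNA, behaved otherwise. It had 10730, 10449 and 9537 counts in control and 6306, 7181 and 6610 with ILL. The ILL libraries were lower without overlap (log2 fold change −0.55 ± 0.06, SE; adjusted p = 6.50e-09), short of the fold cutoff. Per length it was the most abundant member in both groups, at 99.6 ± 5.31 FPKM (fragments per kilobase of gene length, scaled to library size; SD, n = 3) in control and 65.0 ± 4.53 with ILL. The ratio of CENPA to CENPB in FPKM was 0.248, 0.227 and 0.215 in the control libraries and 0.0452, 0.0330 and 0.0444 in the ILL libraries. This ratio was not planned in advance and is a description.

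In the CCAN, 13 of the 14 tested genes fell (against 11.4% of all tested genes), with a median log2 fold change of −2.56. CENPC, which ties the CENP-A nucleosome to the MIS12 complex, fell from 542, 474 and 570 counts to 217, 188 and 209 (log2 fold change −1.30 ± 0.13, SE; adjusted p = 1.48e-09). The 4 genes of the CENP-H, I, K and M group, a scaffold of the network, fell further than CENPC in log2 fold change. CENPM led them, from 1480, 1242 and 1305 counts to 154, 122 and 178 (log2 fold change −3.08 ± 0.11, SE; adjusted p = 7.72e-18), followed by CENPH (−3.06) and CENPI (−2.91). CENPK was the least lowered, from 1681, 1679 and 1301 counts to 335, 256 and 276 (log2 fold change −2.36 ± 0.11, SE; adjusted p = 5.83e-16). Even this least lowered subunit stood 5.13-fold below control.

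The CENP-L and N pair, of which CENPN reads the CENP-A nucleosome directly, fell together. CENPN had 2253, 2135 and 2138 counts in control and 289, 312 and 321 with ILL (log2 fold change −2.76 ± 0.08, SE; adjusted p = 8.06e-20). CENPL went from 1067, 990 and 850 counts to 173, 162 and 184 (log2 fold change −2.42 ± 0.11, SE; adjusted p = 8.71e-16). In the CENP-O, P, Q and U group, whose CENP-U docks the kinase PLK1, 3 genes fell alike and the fourth less. CENPP, the member with the lowest level per length among those tested (1.06 ± 0.0779 FPKM in control, 0.161 ± 0.0456 with ILL), had 189, 190 and 201 counts in control and 33, 20 and 36 with ILL (log2 fold change −2.64 ± 0.27, SE; adjusted p = 3.32e-09). CENPU (−2.62) and CENPO (−2.51) were close to it. CENPQ, a microtubule-binding subunit, had 917, 820 and 669 counts in control and 249, 321 and 297 with ILL, the smallest fall of the group (log2 fold change −1.40 ± 0.12, SE; adjusted p = 1.38e-10). CENPP shares 38% of its exon bases with IPPK and CENPO 27% with ADCY3, both on the other strand. CENPN shares 12.8% with CMC2 and CENPU 11.7% with PRIMPOL, also on the other strand.

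The histone-fold proteins CENP-T, W, S and X form another route from centromeric DNA to the NDC80 complex, and here the subunits parted most. CENPW, the obligate partner of CENPT, fell from 1004, 1032 and 865 counts to 161, 113 and 126 (log2 fold change −2.79 ± 0.13, SE; adjusted p = 7.55e-16). CENPT, whose tail recruits the NDC80 complex, had 1103, 1093 and 1129 counts in control and 867, 929 and 872 with ILL. Its ILL libraries lay below the control libraries by a small margin (log2 fold change −0.25 ± 0.08, SE; adjusted p = 0.00592), the shallowest difference of any tested member. In FPKM the ratio of CENPW to CENPT was 1.88, 1.96 and 1.59 in the control libraries and 0.385, 0.252 and 0.299 in the ILL libraries. CENPW was thus the more abundant RNA in control and CENPT with ILL. The pair was picked by its fold changes, so the ratio is a description. CENPX fell 2.57-fold (log2 fold change −1.36). CENPT shares exon bases with 3 genes of the other strand, 10.8% with TSNAXIP1, 6.86% with THAP11 and 1.99% with NUTF2.

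CENPS, the partner of CENPX, was the member removed by the filter on low counts. It had 31, 3 and 14 counts in control and 3, 7 and 0 with ILL, and the groups overlapped. In the annotation 64.7% of its exon bases also belong to the readthrough gene CENPS-CORT, whose row held 146, 121 and 140 counts in control and 50, 61 and 80 with ILL (log2 fold change −1.02 ± 0.26, SE; adjusted p = 0.00102). This row was examined after its values had been seen. With the readthrough counts added to CENPS, its log2 fold change was −1.11 (adjusted p = 0.00031) and 35 of 41 members fell. PMF1-BGLAP, the readthrough gene over PMF1, was listed at 0 counts in all 6 libraries.

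In the KMN network, 8 of the 10 genes fell (median log2 fold change −2.96), against 11.4% of all tested genes, and the complexes differed. The NDC80 complex, the microtubule-binding rod, fell as a unit, its 4 genes between −3.14 and −2.99. NUF2 fell from 2648, 2324 and 2037 counts to 225, 223 and 312 (log2 fold change −3.14 ± 0.10, SE; adjusted p = 1.09e-18). NDC80 fell from 1731, 1503 and 1556 counts to 188, 213 and 173 (log2 fold change −2.99 ± 0.10, SE; adjusted p = 6.14e-19), with SPC25 (−3.09) and SPC24 (−3.07) between them. Per length the 4 RNAs lay close to each other in both groups, with means of 21.1 to 30.6 FPKM in control and 2.53 to 3.31 FPKM with ILL. The log2 ratio of NDC80 to NUF2 within a library was −0.53 ± 0.13 in control and −0.38 ± 0.41 with ILL (SD, n = 3), and the groups overlapped. Of the 4 promoters printed above, SPC24 was the one with no CHR, and its fall (−3.07) lay within the range of the other 3.

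The MIS12 complex, the joint between the CCAN and the microtubule-binding proteins, fell least among the complexes, with a median log2 fold change of −0.73. DSN1 fell from 1870, 1617 and 1659 counts to 697, 625 and 707 (log2 fold change −1.28 ± 0.07, SE; adjusted p = 9.27e-14). MIS12 passed the fold cutoff narrowly, with 810, 752 and 694 counts in control and 309, 328 and 407 with ILL (log2 fold change −1.04). Without ILL replicate 1 its log2 fold change was −0.96, short of the cutoff. NSL1 (−0.42) and PMF1 did not reach it. PMF1 had 500, 429 and 550 counts in control and 427, 354 and 393 with ILL (log2 fold change −0.27 ± 0.12, SE; adjusted p = 0.0471), and its adjusted p reached 0.267 under other settings.

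The KNL1 complex, the platform of the spindle checkpoint, fell like the NDC80 complex. KNL1, the scaffold for the BUB kinases, fell from 2994, 2439 and 2423 counts to 292, 233 and 282 (log2 fold change −3.21 ± 0.09, SE; adjusted p = 2.42e-20). ZWINT, its binding partner, fell from 4029, 3209 and 3863 counts to 505, 453 and 433 (log2 fold change −2.93 ± 0.08, SE; adjusted p = 3.02e-20). The mean FPKM of the NDC80 complex divided by that of the MIS12 complex was 2.71, 2.73 and 2.43 in the control libraries and 0.537, 0.584 and 0.554 in the ILL libraries. This ratio was chosen after the values had been seen and is a description. On average the NDC80 subunits were thus the more abundant RNAs in control and the MIS12 subunits with ILL.

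**Figure D3:**
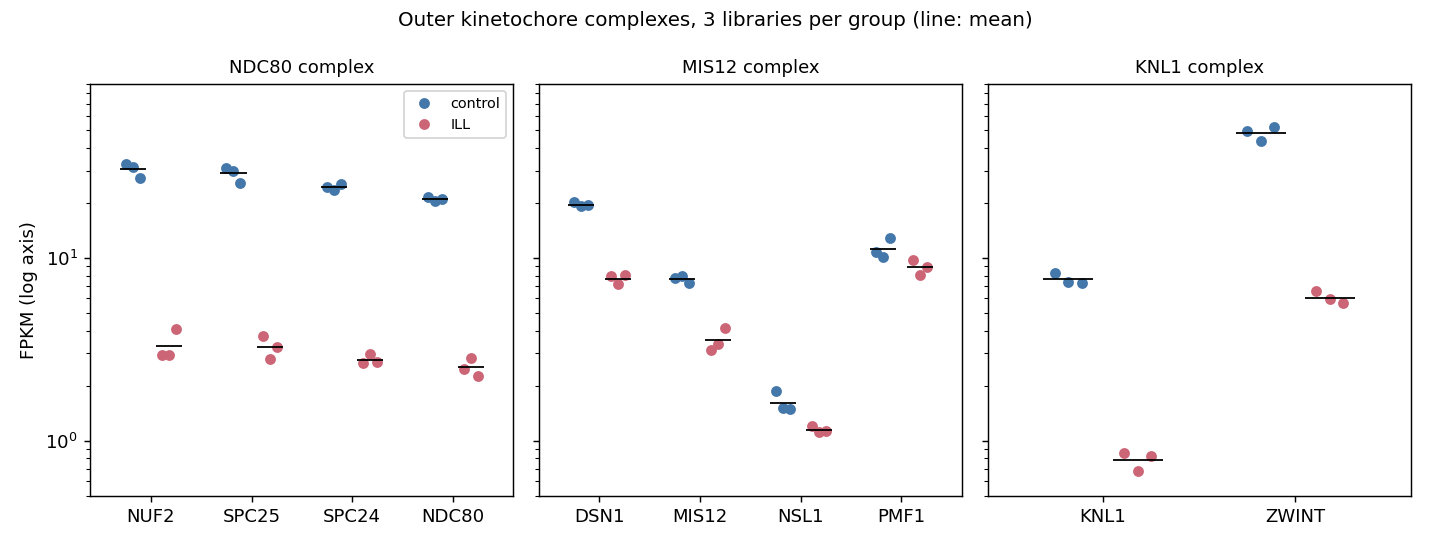
FPKM (log axis) in each library of the genes of the NDC80, MIS12 and KNL1 complexes, control in blue and ILL in red, with a line at the mean of 3 libraries. The NDC80 genes drop from means of 21.1 to 30.6 to means of 2.53 to 3.31, while the PMF1 points of the groups lie close together.

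The SKA complex couples kinetochores to shortening microtubules, and its 3 genes fell unevenly. SKA3 fell from 1965, 1814 and 1947 counts to 214, 169 and 220 (log2 fold change −3.18 ± 0.09, SE; adjusted p = 1.42e-19), and SKA1 by −2.57 on the log2 scale. SKA2 fell from 5563, 4846 and 4292 counts to 1342, 1156 and 1327 (log2 fold change −1.87 ± 0.07, SE; adjusted p = 1.24e-17). Even the smallest fall of the complex was 3.66-fold.

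The RZZ complex (ROD, encoded by KNTC1, with ZW10 and Zwilch) and Spindly form the fibrous corona that recruits dynein. SPDL1, which encodes Spindly, led this group, falling from 2555, 2097 and 2534 counts to 566, 429 and 516 (log2 fold change −2.18 ± 0.09, SE; adjusted p = 6.79e-17). KNTC1 (−2.02) and ZWILCH (−1.36) also fell. ZW10, which also acts in membrane traffic, had 2942, 2550 and 2708 counts in control and 1445, 1501 and 1621 with ILL. That difference (log2 fold change −0.78 ± 0.06, SE; adjusted p = 7.43e-11) stopped short of the fold cutoff, and its groups did not overlap.

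The large coiled-coil proteins of the corona fell among the steepest. CENPF fell from 7904, 6718 and 6666 counts to 474, 669 and 752 (log2 fold change −3.42 ± 0.10, SE; adjusted p = 7.90e-20). CENPE, the plus-end kinesin that aligns chromosomes, fell from 3087, 2845 and 2635 counts to 281, 309 and 385 (log2 fold change −3.07 ± 0.09, SE; adjusted p = 1.09e-19). Per length, CENPF went from 20.1 ± 0.912 to 1.78 ± 0.400 FPKM (SD, n = 3). CENPE went from 9.39 ± 0.442 to 1.07 ± 0.173 FPKM, so that CENPF stayed the more abundant of the pair in mean level.

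The rule by symbol also took in 2 genes that belong to none of these complexes. CENPJ encodes a centriole protein, and it fell from 607, 485 and 499 counts to 121, 137 and 142 (log2 fold change −1.92 ± 0.13, SE; adjusted p = 3.54e-12). CENPV, of the inner centromere and the spindle midzone, had 693, 649 and 614 counts in control and 465, 417 and 519 with ILL (log2 fold change −0.42 ± 0.10, SE; adjusted p = 0.000932). CENPV did not reach the fold cutoff, and its groups did not overlap.

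Within 11 complexes or pairs, the log2 ratio of the least to the most lowered subunit was compared between groups, a measure that does not depend on library scaling. The pairs were picked by their fold changes in these same libraries, so a larger ratio with ILL was built in. The ratios and their p-values are therefore a description and no evidence of a shift. They grew most in the CENP-T, W, S and X group (CENPT to CENPW, by 2.55) and in CENP-A loading (MIS18A to OIP5, by 2.04). Smaller shifts were found for ZW10 to SPDL1 (1.41), SKA2 to SKA3 (1.32), CENPQ to CENPP (1.28), PMF1 to DSN1 (1.01), CENPK to CENPM (0.74), CENPE to CENPF (0.37) and CENPL to CENPN (0.34). In all of these the groups did not overlap, and the two-sided exact permutation test gave p = 0.1, the smallest that 3 libraries against 3 allow (0.122 adjusted over the 11). ZWINT to KNL1 (0.29, exact p = 0.2) and NDC80 to NUF2 (0.15, exact p = 0.6) overlapped between groups.

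The fall did not follow the level in control. Over the 40 tested genes, the correlation of log2 FPKM in control with the log2 fold change was −0.0824, a description over genes that share the same libraries. Among abundant members, CENPB (99.6 FPKM in control) and CENPX (64.8) were lowered 1.46-fold and 2.57-fold, and ZWINT (48.4) 7.61-fold. Among scarce ones, NSL1 (1.62 FPKM) was lowered 1.34-fold and CENPP (1.06) 6.22-fold.

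**Figure D4:**
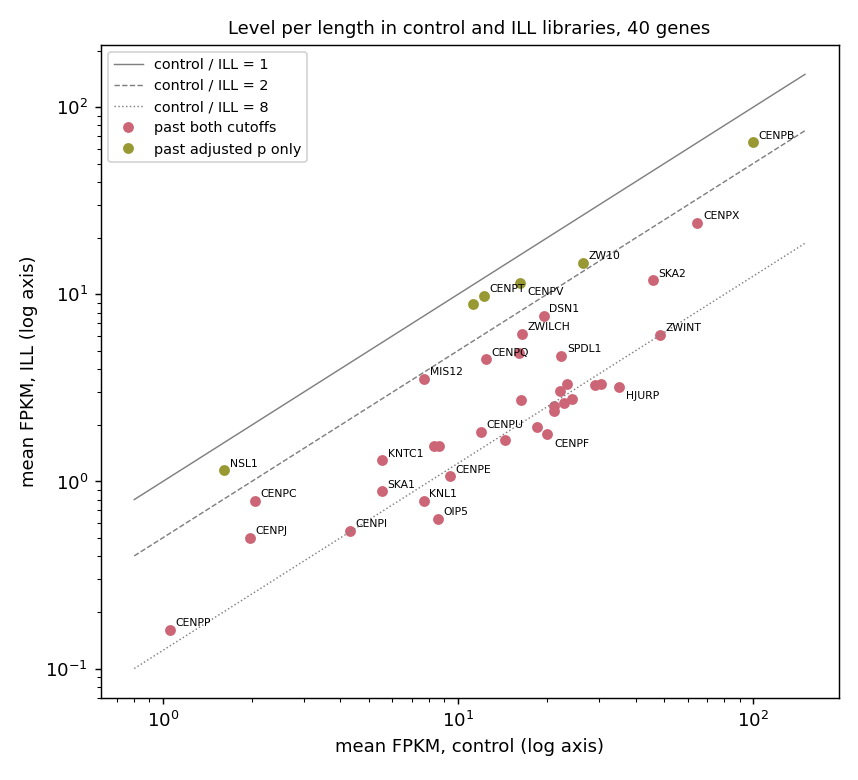
Mean FPKM with ILL (vertical) against mean FPKM in control (horizontal), both log axes, for the 40 tested members; each point is the mean of 3 libraries and the grey lines mark equal, 2-fold and 8-fold lower levels. The points lie below the equal line at low and high levels alike, with CENPB, NSL1, PMF1, CENPT, CENPV and ZW10 above the 2-fold line and OIP5, CENPF and HJURP among those past the 8-fold line.

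Genes that work with the kinetochore without being members moved in the same direction. Of 20 tested partners (checkpoint, chromosomal passenger and cohesion-protecting genes), 18 fell and 0 rose, with a median log2 fold change of −2.84. Of all tested genes, 11.4% fell and 12.5% rose. CDC20, the checkpoint's target, and BIRC5, of the chromosomal passenger complex, were the lowest (−3.67 and −3.56). MAD1L1, a checkpoint protein of the nuclear pore and kinetochore, was higher short of the fold cutoff (0.33; adjusted p = 6.45e-05). BOD1, a chromosome alignment factor, passed neither cutoff (0.02; adjusted p = 0.809), and BUB3 fell least among the 18 (−1.18).

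The summed cell-cycle lists moved with the members. The counts of genes that fell stand against 11.4% of all tested genes. Of 42 S phase genes 40 fell (median of the list −2.47), from TYMS (−3.33) and DTL (−3.21) to RPA2 (−1.08). CASP8AP2 was lower short of the fold cutoff (−0.88), and BRIP1 passed neither cutoff (−0.08; adjusted p = 0.316). Of 40 G2 and M phase genes 38 fell (median of the list −2.80), with CDCA3 (−3.66) and PSRC1 (−3.63) the lowest, and the other 2, RANGAP1 (−0.38) and CTCF (−0.27), were lower short of the fold cutoff. Summed over its genes, the S phase list went from 3717 to 3812 CPM in the control libraries to 741 to 769 CPM with ILL, and the G2 and M list from 7681 to 7950 CPM to 1660 to 1670 CPM. The folds of the sums, 4.98 and 4.69, were close to that of the kinetochore partners (4.47) and above that of the members (3.50). The members' sum includes CENPB, at 281 of its 2173 CPM in control and 193 of its 620 CPM with ILL. By median log2 fold change the members (−2.54) lay between the S phase list (−2.47) and the G2 and M list (−2.80). The part of the share of cycling cells in the members' fall was not tested.

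The cells carried the markers of their label. All 7 genes of biliary and simple epithelium were tested, with summed levels of 9050 to 9292 CPM in control and 9531 to 10120 CPM with ILL, and of these CDH1 rose (2.07) and none fell past both cutoffs. Short of the fold cutoff, KRT18 (−0.82), SOX9 (−0.56), KRT19 (−0.18) and KRT8 (−0.16) were lower, each at an adjusted p under 0.05. KRT7 (0.64) and EPCAM (0.24) were higher in the same way, so the sum holds genes that moved in opposite directions. Of the other lists, 5 of 6 hepatocyte, 2 of 6 fibroblast, 3 of 5 leukocyte and 3 of 4 endothelial genes had enough counts to be tested. The leukocyte sum went from 37.0 to 41.8 CPM in control to 113 to 119 CPM with ILL, most of it CD68 (36.0 to 40.9 CPM in control, 111 to 117 CPM with ILL), which encodes a lysosomal protein also made outside leukocytes, while the defining genes PTPRC and CD3E had at most 9 and 3 counts in any library. CD68 and CD79A rose, as did VWF among endothelial genes, and no hepatocyte or fibroblast gene passed both cutoffs. The rises of CD79A and VWF rest on few counts. CD79A had 20, 10 and 7 counts in control and 48, 67 and 36 with ILL. VWF had 2, 13 and 0 counts in control and 25, 23 and 13 with ILL. The part of the genes of these marker lists in the members' fall was not tested.

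**Figure D5:**
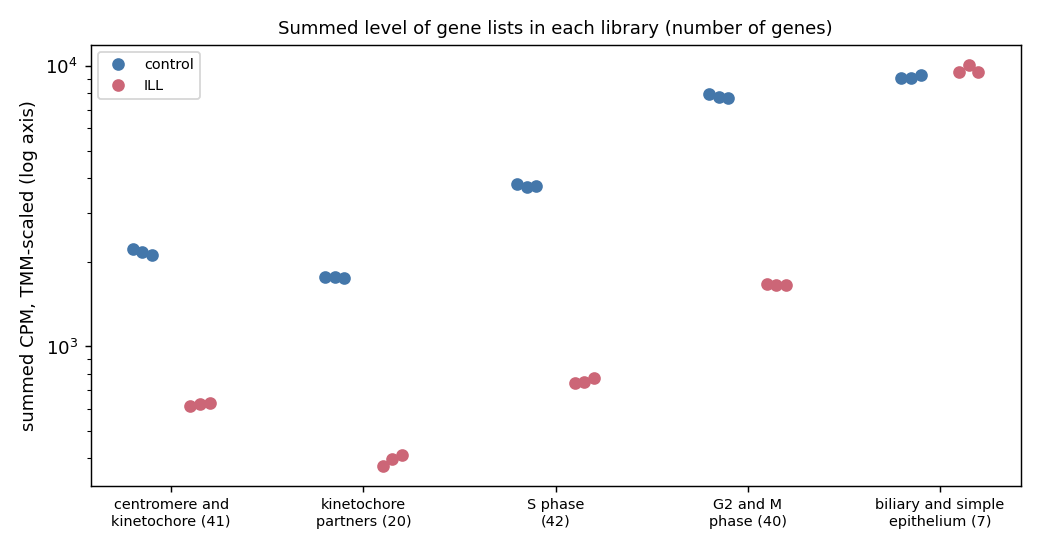
Summed level in CPM (log axis, scaled by TMM) of 5 gene lists in each library, control in blue and ILL in red. The members drop from 2120 to 2218 CPM to 611 to 626 CPM and the S phase, G2 and M phase and partner lists drop with them, while the epithelial list stays between 9050 and 10120 CPM.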

How the data were processed

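RNA-seq was measured in 6 libraries of HCCC9810 cells, 3 with vehicle and 3 with 20 μM ILL, grouped by their labels. Per gene symbol, the files deposited by the authors give unnormalized counts and FPKM, with a column for each library. The deposited FPKM equal the counts divided by gene length and library total (100% of 88055 nonzero values within 0.1%). Per the submitters' processing notes the build was GRCh38 and the test DESeq2, and the aligner, counter and strand setting are not given in the sources used here.

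In R 4.3.3 with edgeR 4.0.16, low counts were removed by filterByExpr, and the rest were scaled by TMM and tested with edgeR's quasi-likelihood test over all 13066 remaining genes with Benjamini-Hochberg adjustment, after a test of the scripts on simulated data. The biological coefficient of variation was 0.0717. The cutoffs (adjusted p under 0.05, fold under 0.5 or above 2) were those of the study. Alternatives used other scaling and filters, DESeq2 1.42.0, limma 3.58.1 on log2(FPKM + 1) and log2(FPKM + 0.1), a replicate block, no fold cutoff, and leaving out each library. By the naming rule, counts per library go to the least and most lowered gene of each role group and to genes under 10 counts in some library, and at most 2 genes at each end of the partner and cell-cycle lists, among those with an adjusted p under 0.05, are named. HJURP, CENPA, MIS12, BOD1 and BRIP1 were added after their values had been seen. The members and all lists were chosen with earlier results of these data known. Gene models are GENCODE 29, and 16 members share exon bases with another gene of the count table.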

Additional observations from a re-analysis of the deposited data

How the results depend on the processing

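The number of members that fell was 34 and ranged from 30 to 35 under the alternatives with the fold cutoff, and it was 40 without that cutoff. The count of members that rose was 0 under every alternative run. The median log2 fold change of the members (−2.54) was −2.605 with scaling by library size only, which moves the median of all tested genes to −0.0702, −1.921 with limma on log2(FPKM + 1) at a mean FPKM of at least 1 and −1.869 without that filter, since the pseudocount shrinks low levels. Leaving out each library in turn gave medians from −2.585 (without ILL replicate 1) to −2.46 (without ILL replicate 3) and 33 to 35 members that fell. The shift of the NDC80 to NUF2 ratio ranged from −0.01143 without ILL replicate 2 to 0.3809 without ILL replicate 3, so its sign rests on single libraries. Of the 40 tested members, 36 kept their call in up to 16 alternatives. The call was lost with limma on log2(FPKM + 1) for MIS12 (−0.938), CENPC (−0.7661) and CENPJ (−0.9917), for CENPP (−0.8244) there without a filter, and for MIS12 without ILL replicate 1 (−0.9618). The adjusted p of PMF1 ran from 0.00656 to 0.267 and that of CENPT from 0.00072 to 0.0301. CENPS, where it could be tested, had log2 fold changes from −3.228 to −0.3945 and adjusted p from 0.00031 (readthrough counts added, an alternative chosen after seeing the data) to 0.1417. Scaling by library size only moved the calls over all genes from 1485 lower and 1635 higher to 1649 lower and 1488 higher, and limma on log2(FPKM + 1) at a mean of at least 1 gave 923 lower and 668 higher (929 and 680 without the filter, 1247 and 909 with a pseudocount of 0.1). With the replicate number as a block, 34 members fell and 39 had an adjusted p under 0.05. Deviations of same-numbered libraries correlated at 0.00668, −0.02 and −0.0605, and those of differently numbered ones at −0.0589 to 0.0722. With 3 libraries per group, these values cannot show whether same-numbered libraries shared a culture or batch. Depth limits the precision of CENPS and of members with few counts under ILL, such as CENPP (20 to 36 counts) and OIP5 (23 to 29 counts), whose standard errors (0.27 and 0.20) were the largest among the tested members.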
